A study of Mus musculus with 12 samples.

Results

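Interferon response genes were followed in heart muscle cell RNA from mice that lacked myocardin-related transcription factors and from their controls, with and without pressure overload of the left ventricle. The 39 genes were chosen by their textbook role, with earlier results of these data known, and all 39 were found among the 49568 rows of the count table. They comprise 4 transcription factors (Irf1, Irf7, Irf9 and Stat2), 4 genes of sensing, modification and feedback (Ifih1, Ddx58, Isg15 and Usp18), 19 antiviral effectors, the 2 chemokines Cxcl9 and Cxcl10, 6 GTPases and 4 genes of antigen processing and presentation (Psmb8, Psmb9, Tap1 and B2m). All 39 passed the filter on low counts, so all were tested among 14712 genes.

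The design had 4 groups of 3 libraries, each from cardiomyocytes of male mice that were 11 weeks old when cells were isolated, 7 days after surgery. Control mice had the genotype alphaMHC-MerCreMre/+, and dKO mice had the genotype MHC-MerCreMre/+; Mrtf-a-/-; Mrtf-bflox/flox, each after sham surgery or after TAC, a narrowing of the aorta that raises the pressure against which the ventricle works. All groups carried the Cre transgene, whose cardiac myosin promoter drives a tamoxifen-activated recombinase in cardiomyocytes, and every mouse was given tamoxifen (30 ug/g on 3 days in a row) at 8 weeks of age, which switches the recombinase on. Mrtf-a is therefore missing from every cell of dKO mice, while other heart cells keep Mrtf-b. Whether each library came from a separate mouse is not stated in the labels, so p-values measure the spread between these libraries.

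Interferons are secreted proteins that bind receptors on the same or neighbouring cells. Type I interferon receptors signal through the kinases JAK1 and TYK2 to a complex that holds STAT2 and IRF9 and binds the interferon-stimulated response element (ISRE) of their target genes. Type II interferon acts through another element, the gamma-activated site (GAS). The targets block viral RNA and protein synthesis, attract lymphocytes, attack membranes around intracellular pathogens and raise antigen presentation, and many are also switched on by IRF3 and IRF7 downstream of sensors of nucleic acids. In the heart they have been studied in cardiomyocytes and in resident and infiltrating macrophages alike.

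Promoter sequences are shown for 7 members as examples, so that the elements can be read beside the values. All of them but Oasl2 hold a match to the ISRE core described below, against 17 of the 32 members with a promoter entry. Psmb8 and Ifit2, which are not shown, held none. Each line is the 250 bases before the start of transcription in the RefSeq table for GRCm38.p6, 5′ to 3′ on the strand of the gene. Capitals mark matches to GAAANNGAAA, the core of the ISRE, on either strand, which appears as the reverse complement where the match lies on the other strand. The regions are chr5:92348890-92349139 (minus strand) for Cxcl10, chr5:114896684-114896933 (plus) for Oasl2, chr4:156200819-156201068 (minus) for Isg15, chr12:26456453-26456702 (minus) for Rsad2, chr3:142530086-142530335 (plus) for Gbp7, chr11:58199306-58199555 (plus) for Igtp and chr2:122147437-122147686 (plus) for B2m.
Cxcl10: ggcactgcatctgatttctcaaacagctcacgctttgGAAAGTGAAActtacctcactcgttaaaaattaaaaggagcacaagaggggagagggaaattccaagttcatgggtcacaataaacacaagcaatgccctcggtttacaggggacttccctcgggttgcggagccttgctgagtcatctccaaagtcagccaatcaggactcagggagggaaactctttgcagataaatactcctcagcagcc
Oasl2: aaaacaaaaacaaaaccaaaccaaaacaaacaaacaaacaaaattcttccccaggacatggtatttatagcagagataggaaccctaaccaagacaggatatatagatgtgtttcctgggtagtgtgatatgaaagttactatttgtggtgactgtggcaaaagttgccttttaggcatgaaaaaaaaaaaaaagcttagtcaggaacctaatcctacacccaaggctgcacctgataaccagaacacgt
Isg15: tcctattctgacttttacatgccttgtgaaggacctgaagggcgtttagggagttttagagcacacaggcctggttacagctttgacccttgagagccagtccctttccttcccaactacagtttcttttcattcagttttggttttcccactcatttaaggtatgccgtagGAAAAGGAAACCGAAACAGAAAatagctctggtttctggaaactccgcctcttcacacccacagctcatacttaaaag
Rsad2: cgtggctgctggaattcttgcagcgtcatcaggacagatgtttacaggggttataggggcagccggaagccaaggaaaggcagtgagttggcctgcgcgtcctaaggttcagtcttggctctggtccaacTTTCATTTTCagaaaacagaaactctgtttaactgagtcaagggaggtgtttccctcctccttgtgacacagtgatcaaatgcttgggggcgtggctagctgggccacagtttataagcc
Gbp7: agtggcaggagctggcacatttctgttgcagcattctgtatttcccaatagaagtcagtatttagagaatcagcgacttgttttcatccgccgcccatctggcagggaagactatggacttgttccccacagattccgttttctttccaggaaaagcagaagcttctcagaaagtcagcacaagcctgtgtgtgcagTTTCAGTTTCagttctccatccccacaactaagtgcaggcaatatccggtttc
Igtp: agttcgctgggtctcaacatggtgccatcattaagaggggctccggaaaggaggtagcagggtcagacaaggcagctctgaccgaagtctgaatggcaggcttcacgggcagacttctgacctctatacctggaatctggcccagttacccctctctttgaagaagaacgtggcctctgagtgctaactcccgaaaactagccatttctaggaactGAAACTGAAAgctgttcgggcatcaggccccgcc
B2m: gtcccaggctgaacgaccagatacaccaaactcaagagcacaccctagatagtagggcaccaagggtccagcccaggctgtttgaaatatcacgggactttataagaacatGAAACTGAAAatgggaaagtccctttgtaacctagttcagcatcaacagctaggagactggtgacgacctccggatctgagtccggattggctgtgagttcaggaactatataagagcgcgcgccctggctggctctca

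Isg15 held 3 overlapping matches, the nearest starting 66 bases before the start of transcription. The match began 34 bases before the start in Igtp, 53 in Gbp7, 120 in Rsad2, 139 in B2m and 213 in Cxcl10, and Oasl2 had none in this window. RefSeq windows matched 32 of the 39 members, and Usp18, Parp14, Rtp4, Oas2, Mx1, Ifi27 and Mx2 had no entry. Of these 32 genes, 17 (53.1%) held at least 1 ISRE match, against 936 of 27025 genes with windows of the same length (3.46%). All 6 GTPases had a match, as did 7 of 13 antiviral effectors, 1 of 4 transcription factors (Stat2), 1 of 3 sensing and feedback genes, 1 of 2 chemokines and 1 of 4 antigen genes. The GAS element, searched as TTCNNNGAA on both strands, was in 8 of 32 members (25.0%) and in 8.13% of all genes. The CArG box, the element of serum response factor through which myocardin-related factors act, was in none of the 32 members and in 1.62% of all genes. These are letter matches in a short window, and no match says nothing about the factor.

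Depth and cell content bear on every value that follows. Levels are in CPM, a gene's count over the TMM-scaled size of its library in megareads. Total counts per library lay between 20082000 and 29675212, and 3 counts corresponded to 0.0935 to 0.184 CPM, a floor that covers counting error only. Mkl1, the gene of Mrtf-a, was at 7.59 to 16.0 CPM in the 6 control libraries and at 2.15 to 3.20 CPM in the 6 dKO libraries. Mkl2, the gene of Mrtf-b, was at 30.1 to 44.1 CPM and 15.2 to 28.1 CPM, so every library went with its label at both genes. The log2 difference of dKO from control at Mkl1 was -1.75 after sham and -2.42 after TAC, called in both. At Mkl2 it was -0.88 (adjusted p = 0.507, edgeR) and -0.54 (adjusted p = 0.518, edgeR), called in neither. Markers of cardiomyocytes (8 genes, among them Myh6 and Tnnt2) summed to 35665 to 96742 CPM per library. Markers of fibroblasts (10 genes) summed to 980.2 to 10520 CPM, of endothelial cells (10 genes) to 1206 to 2508 CPM and of macrophages (14 genes) to 172 to 763 CPM, so RNA of other cells was present. Sums of different genes do not measure shares of cells.

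Among the libraries, dKO sham replicate 1 and dKO TAC replicate 2 stood apart. Over 9745 genes, a gene's deviation from the other replicates ran against its exon length in these libraries (Spearman rho -0.62 and -0.60), while rho was between -0.10 and 0.11 in the control libraries and between 0.46 and 0.65 in the other dKO libraries. The members followed the same pattern, in dKO sham replicate 1 with rho = -0.69 over the 39 genes, and in dKO TAC replicate 2, with rho = -0.50. Gbp7, with 5614 exon bases, was at 2.58, 13.7 and 17.8 CPM in the dKO sham libraries, and Ifi35, with 1727, was at 35.6, 15.9 and 18.0 CPM. The lowest Mkl2 values, 15.2 and 18.1 CPM, were also in these libraries. Estimates for dKO that turned or moved by over 1.5 times without both libraries are given both ways, gene by gene for the members described and by list for the rest.

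Levels per length spanned a wide range in control sham cells. B2m, the light chain of class I antigen-presenting molecules, was highest at 213 CPM per kilobase of exon, followed at a distance by Bst2 (16.9), which tethers budding virus, Ifi27 (14.6), Ifi35 (8.95) and Gbp2 (8.31). At the low end were Oas3 (0.0257), Mx1 (0.0973) and Cxcl10 (0.133). In counts, the control sham libraries held 4, 5 and 4 reads of Oas3 and 4, 8 and 10 reads of Cxcl10, and Oas3 was at 0 in dKO sham replicate 1, which allows a level of up to 0.184 CPM there. A gene this low can pass the filter through the group in which it is high, so the fold changes of these 3 genes carry wide errors.

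**Figure D1:**
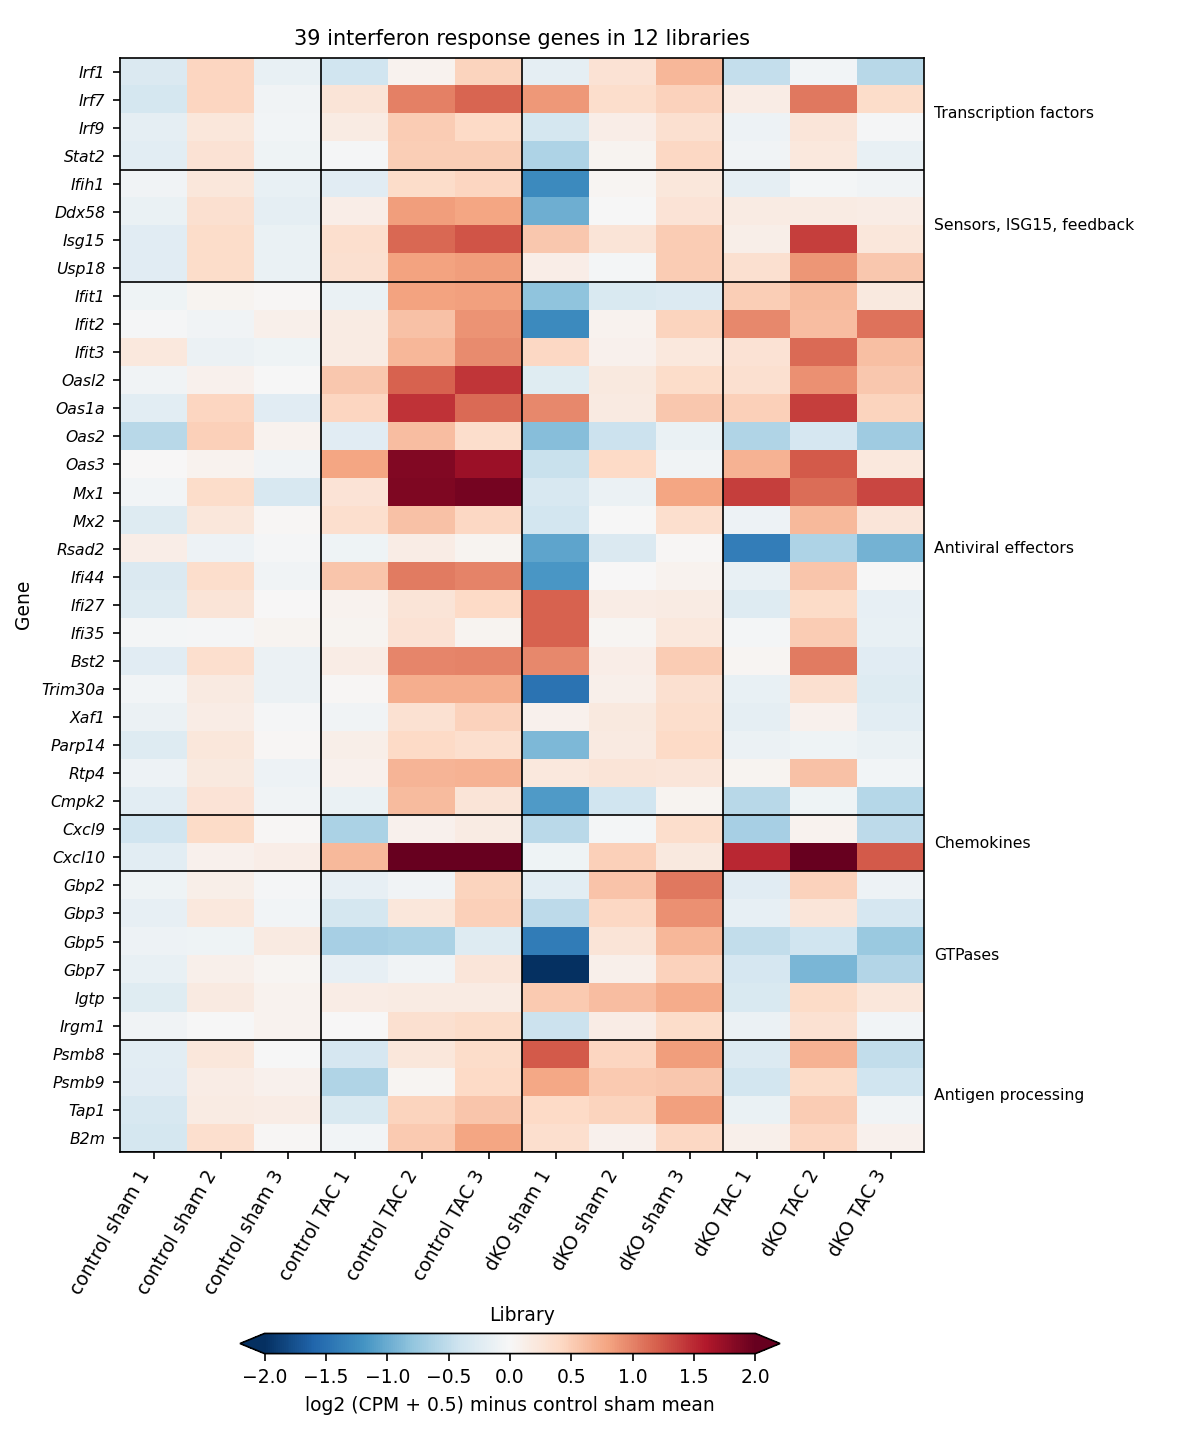
Levels of the 39 genes (rows, grouped by role) in the 12 libraries (columns), as log2 of CPM plus 0.5 minus the mean of the 3 control sham libraries, with red above and blue below that mean. Control TAC replicates 2 and 3 are red over most rows, control TAC replicate 1 is much paler, and dKO sham replicate 1 mixes deep blue and deep red within single roles.

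In control mice, TAC was followed by higher levels of the chemokine Cxcl10 and of the antiviral gene Oasl2, and by positive but uncalled estimates for most other members. Of 39 members, 2 rose and none fell at an adjusted p under 0.05 (edgeR), or 5.13% of members, against 2.25% of all 14712 genes in either direction and 1.9% higher. At an unadjusted p under 0.05, 12 members (30.8%) were higher and none lower, where 10.8% of all genes were higher. The estimate was positive for 36 of 39, with a median log2 change of 0.33 against 0.00 over all genes. The TAC and sham libraries did not overlap for 6 members that were higher (Ifit2, Oasl2, Oas3, Mx2, Ifi44 and Cxcl10; background 11.0%) and for 1 that was lower (Gbp5; background 10.8%).

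Cxcl10 (ENSMUSG00000034855.13, chr5:92346638-92348889 in GRCm38) encodes a chemokine that attracts activated T cells through the receptor CXCR3. It stood at 0.183, 0.342 and 0.372 CPM in the control sham libraries and at 0.749, 3.34 and 3.17 CPM in the control TAC libraries. Every TAC library was above every sham library, and replicate 1 was well below the other two. The change was 7.92-fold (log2 2.99 ± 0.59 SE, adjusted p = 0.0249, edgeR). The call was lost without control sham replicate 1 or 3 and without control TAC replicate 2 or 3, and over all 20 alternatives the adjusted p (edgeR, DESeq2 or limma) ran from 9.3e-05 to 0.137. An exon of Art3 overlaps Cxcl10 on the opposite strand. The strand setting of the counting was not given in the sources used here, so reads of the pair cannot be told apart.

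Oasl2 (ENSMUSG00000029561.17, chr5:114896936-114912234) belongs to the oligoadenylate synthetase family and carries ubiquitin-like domains. Its levels were 9.87, 11.1 and 10.4 CPM after sham and 15.4, 24.3 and 28.9 CPM after TAC in control mice. The sham libraries lay close together and below all 3 TAC libraries. The rise was 2.19-fold (log2 1.13 ± 0.25 SE, adjusted p = 0.0409, edgeR), and the call held in 10 of 20 alternatives, with adjusted p from 0.00134 to 0.197. It was lost without any 1 of 8 libraries, namely each control sham library, control TAC replicates 2 and 3, dKO sham replicate 2, and dKO TAC replicates 1 and 3.

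In dKO mice, TAC was followed by higher Cxcl10 and by estimates of both signs for the rest, with all 6 GTPases and all 4 antigen genes on the negative side. Of 39 members, 1 rose and none fell (edgeR), against 7.39% of all genes called in either direction and 4.2% called higher. At an unadjusted p under 0.05, 5 members were higher (all genes 12.8%) and 5 lower (all genes 14.8%). The estimate was positive for 17 of 39, and the median log2 change was -0.01 over the members as over all genes. Without the 2 libraries that stood apart, 10 of 39 were positive and the median was -0.36. Groups did not overlap for 4 members that were higher (Ifit1, Ifit2, Mx1 and Cxcl10; background 16.2%) and 3 that were lower (Xaf1, Igtp and Psmb9; background 14.5%). With all libraries each of these shares is at or under the background.

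Cxcl10 was at 0.246, 0.612 and 0.414 CPM in the dKO sham libraries and at 1.76, 2.71 and 1.36 CPM in the dKO TAC libraries. As in the controls, no TAC library was as low as any sham library. The rise was 4.42-fold (log2 2.15 ± 0.57 SE, adjusted p = 0.0406, edgeR). Among the fits that left out 1 library, the call held only without control TAC replicate 1 and without control TAC replicate 3, and it was lost without the 2 libraries that stood apart (log2 1.59 ± 0.66 SE, adjusted p = 0.146, edgeR; range over alternatives 0.00498 to 0.146).

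**Figure D2:**
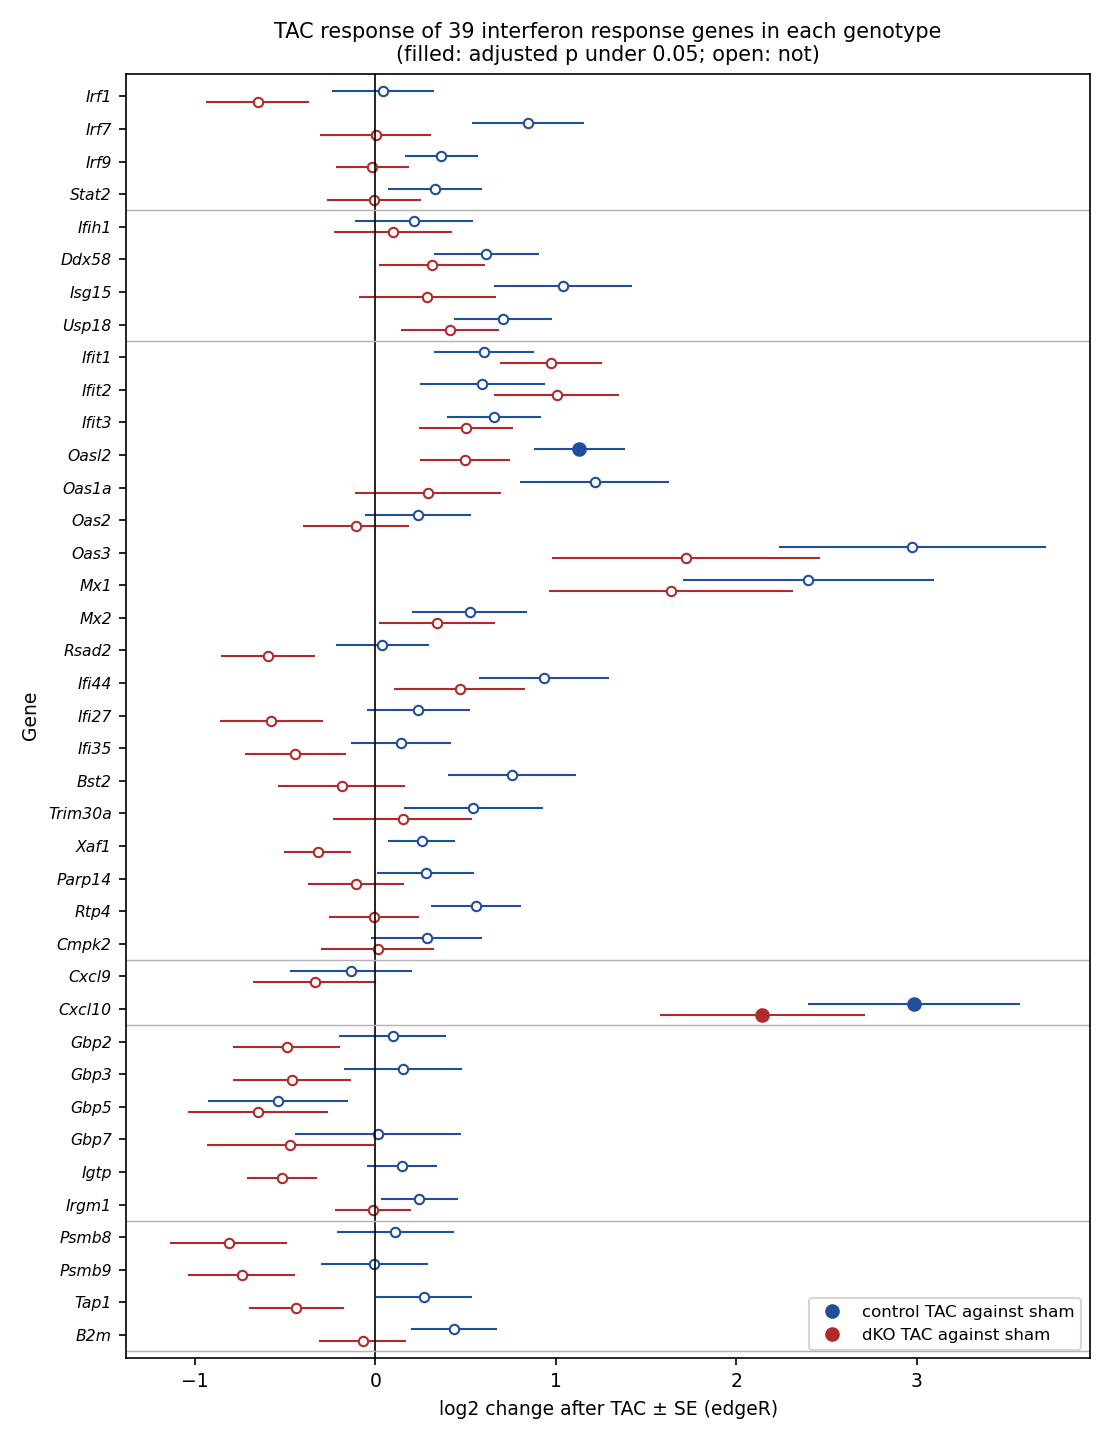
Log2 change after TAC with its SE for each of the 39 genes in control (blue) and in dKO (red), ordered by role, with filled points for genes called at an adjusted p under 0.05. Cxcl10 is filled in both genotypes and Oasl2 in control, and 37 of the 39 red points lie to the left of their blue partner, with Ifit1 and Ifit2 to the right.

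The response to TAC was then compared between genotypes directly, as the TAC change in dKO minus that in control. No gene of the 14712 passed this test (0.0% called, edgeR), and no member did under any of 19 alternatives, DESeq2 included, so no member was shown to respond differently in dKO. At an unadjusted p under 0.05, 2 members were lower, Xaf1 and Igtp, where 2.29% of all genes were. The estimate was negative for 37 of 39 members, with a median of -0.57 on the log2 scale against -0.06 over all genes. Over the alternatives the number of negative estimates ranged from 31 to 37 and the median from -0.80 to -0.25. The members share libraries and vary together, so these 37 estimates are not separate measurements. Several lists of cell type markers lay the same way: the interaction was negative for 12 of 14 macrophage markers (median -0.43), for all 10 endothelial markers (median -0.53) and for 9 of 10 fibroblast markers (median -0.54), and for 5 of 8 cardiomyocyte markers (median -0.24). It was near 0 for 7 mural markers (median -0.08) and for 4 dendritic cell and neutrophil markers (median -0.06). Without the 2 libraries that stood apart the medians were -0.73, -0.82 and -0.67 for macrophage, endothelial and fibroblast markers, 0.15 for cardiomyocyte, -0.43 for mural and -0.08 for dendritic cell and neutrophil markers. The part of cell content in the members' estimates was not tested.

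The genotypes were also compared within each surgery. After sham, no member was called (all genes 0.068%), 2 were higher at an unadjusted p under 0.05 (Igtp and Psmb8; all genes 6.27%), and the median log2 difference, dKO minus control, was 0.22 against 0.02 over all genes. Groups did not overlap for 5 members that were higher in dKO (Rtp4, Igtp, Psmb8, Psmb9 and Tap1; background 9.27%) and for Ifit1, which was lower (background 9.42%). The difference went with gene length: among the 19 shorter members the median was 0.53 with 17 positive estimates, and among the 20 longer ones it was -0.01 with 10 positive. After TAC, no member was called (all genes 0.428%), 3 were lower at an unadjusted p under 0.05 (Oas2, Rsad2 and Cmpk2; all genes 4.09%), 37 of 39 estimates were negative and the median was -0.29 against -0.03. None was higher without overlap (background 9.8%) and 5 were lower without overlap, namely Oas2, Rsad2, Ifi44, Parp14 and Gbp7 (background 7.79%).

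Calls in dKO depended on the libraries that stood apart. With dKO sham replicate 1 and dKO TAC replicate 2 both left out, 6 members were called lower and none higher after TAC in dKO, namely Rsad2, Gbp2, Gbp5, Gbp7, Igtp and Psmb8 (15.4% of members, against 4.66% of the 14923 genes tested in that fit). In control, 4 members were called higher (Ifi44, Cxcl10, Oasl2 and Oas3; all genes 3.36%), and between genotypes after TAC, Rsad2 was called lower in dKO (all genes 1.04%), with a median of -0.46 over the members. The interaction had no called member, but 23 of 39 were lower at an unadjusted p under 0.05 (all genes 6.63%) and the median was -0.80. With the trend of counts with length removed and all libraries kept, 2 members were called higher and none lower after TAC in dKO, and the interaction median was -0.44. These 2 treatments of the same libraries differ in which members they call, and which is nearer to the cells was not tested.

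**Figure D3:**
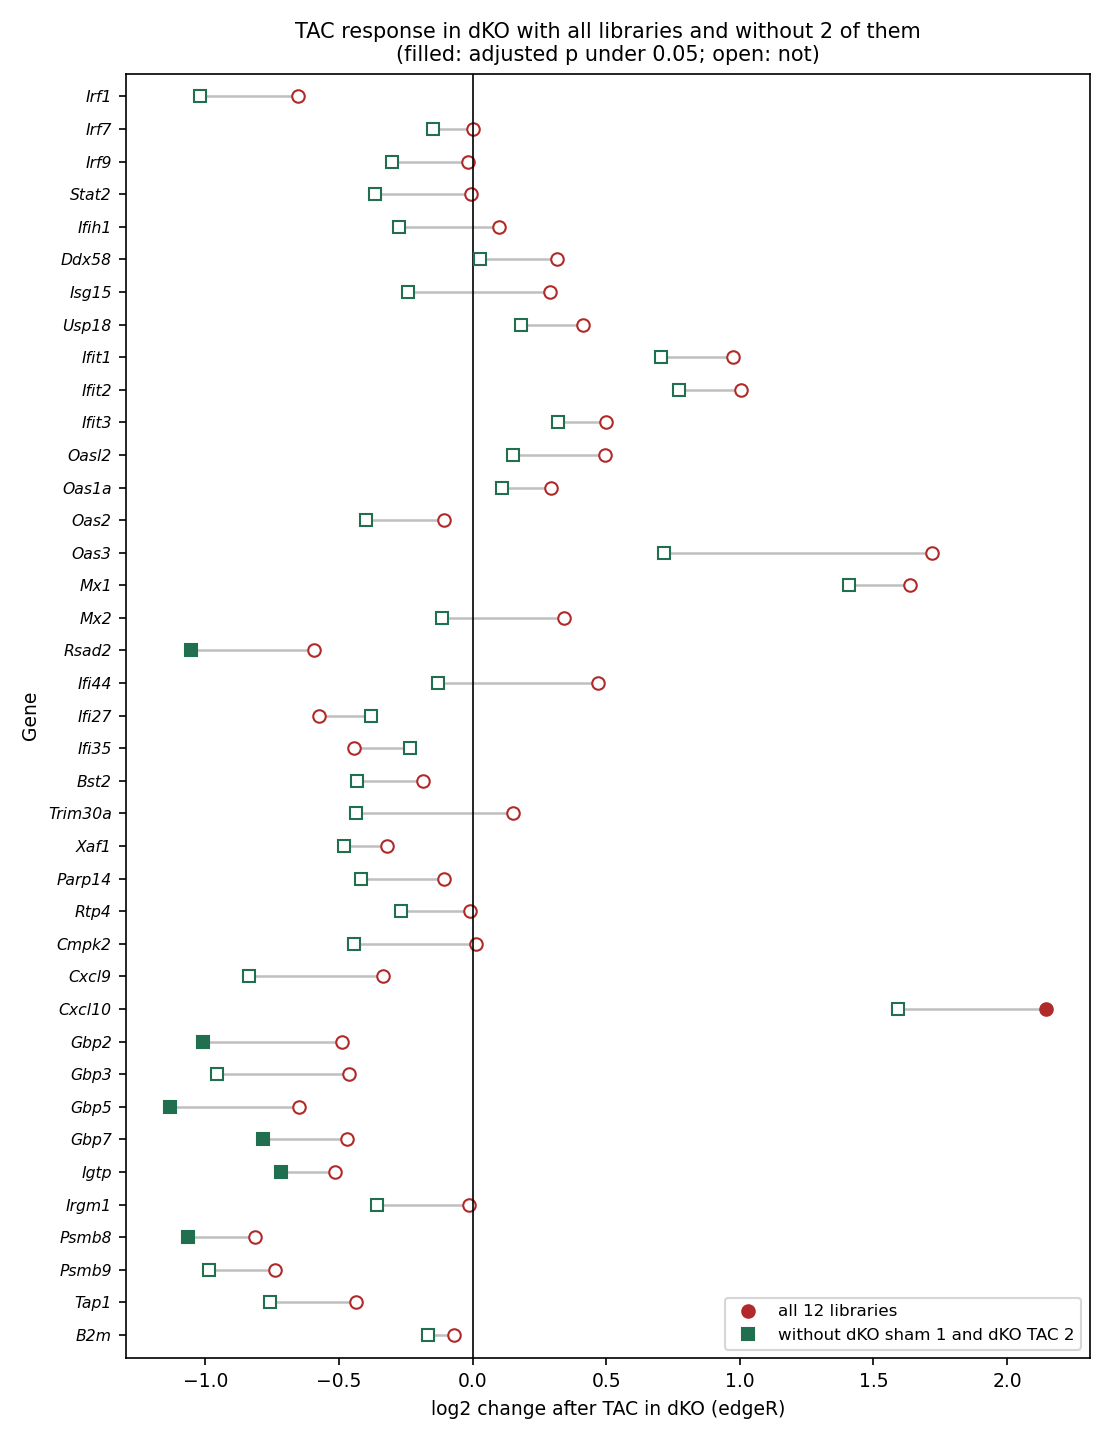
Log2 change after TAC in dKO for each of the 39 genes with all 12 libraries (red circles) and without the 2 that stood apart (green squares), filled where the adjusted p is under 0.05. Leaving the 2 libraries out moves 37 of the 39 points to the left (all but Ifi27 and Ifi35), and 6 members become called lower while Cxcl10 loses its call.

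The transcription factors that carry the interferon signal to DNA were measured well above the floor, and none was called in any comparison. Irf7, the factor that amplifies type I interferon production, was at 9.69, 16.95 and 11.8 CPM after sham and 15.1, 25.7 and 28.5 CPM after TAC in control mice, and 23.3, 16.1 and 17.4 CPM after sham and 13.9, 26.5 and 16.3 CPM after TAC in dKO mice. Control TAC replicates 2 and 3 were above every control sham library, replicate 1 was within their range, and in dKO mice sham and TAC libraries overlapped. The log2 change after TAC was 0.85 ± 0.31 in control (adjusted p = 0.175, edgeR) and 0.00 ± 0.31 in dKO, or -0.15 ± 0.31 in dKO without the 2 libraries that stood apart.

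Stat2, a subunit of the type I complex, was at 19.5, 28.0 and 21.5 CPM after sham and 22.4, 32.2 and 32.1 CPM after TAC in control mice, and 14.6, 23.7 and 30.6 CPM after sham and 21.6, 26.5 and 20.5 CPM after TAC in dKO mice. Irf9, its DNA-binding partner, was at 15.5, 20.8 and 16.96 CPM after sham and 19.9, 25.3 and 23.5 CPM after TAC in control mice, and 13.7, 19.4 and 22.2 CPM after sham and 16.4, 21.0 and 17.3 CPM after TAC in dKO mice. Both genes overlapped between groups in all 4 pairs of groups. Their log2 changes after TAC in control were 0.33 ± 0.26 and 0.37 ± 0.20, with differences between genotypes in that change of -0.34 ± 0.37 and -0.38 ± 0.29, or -0.70 ± 0.29 and -0.67 ± 0.22 without the 2 libraries. Irf1, which is induced chiefly by type II interferon, had a log2 change of 0.04 ± 0.28 after TAC in control and -0.65 ± 0.29 in dKO (-1.02 ± 0.30 without the 2 libraries). The median change of the 4 factors after TAC in dKO was -0.01 with and -0.33 without them. An exon of Irf9 overlaps Rnf31 on the same strand and one of Irf7 overlaps Phrf1 on the other, so part of their reads could be shared.

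The sensing and feedback genes had a median log2 change of 0.66 after TAC in control and 0.30 in dKO, with none of the 4 called. The dKO median was -0.11 without the 2 libraries that stood apart. Isg15, a ubiquitin-like protein that is attached to other proteins, was at 2.88, 4.58 and 3.09 CPM after sham and 4.49, 8.25 and 8.94 CPM after TAC in control mice, and 5.22, 4.21 and 5.12 CPM after sham and 3.79, 9.82 and 4.11 CPM after TAC in dKO mice. Its highest value was in dKO TAC replicate 2, one of the libraries that stood apart, and the other 2 dKO TAC libraries were below all 3 dKO sham libraries. The log2 change after TAC was 1.04 ± 0.38 in control (adjusted p = 0.179, edgeR) and 0.29 ± 0.38 in dKO, or -0.24 ± 0.34 in dKO without the 2 libraries. Usp18, which removes ISG15 and dampens the receptor, had log2 estimates of 0.71 ± 0.27 in control and 0.41 ± 0.27 in dKO (0.18 ± 0.30 without the 2 libraries). The RNA sensors Ddx58 (RIG-I) and Ifih1 (MDA5) had estimates of 0.61 ± 0.29 and 0.21 ± 0.33 in control. In dKO the estimates of all 4 sensing and feedback genes were positive with all libraries, from 0.098 to 0.41. Without the 2 libraries Ddx58 was at 0.03 ± 0.25 and Ifih1 turned to -0.28 ± 0.23 in dKO.

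Among the 19 antiviral effectors all estimates after TAC in control were positive, with a median log2 change of 0.56, and 1 was called. In dKO the median was 0.15 with 11 positive and none called, and without the 2 libraries that stood apart it was -0.23, with 7 positive and Rsad2 called lower. The median difference between genotypes in the TAC change was -0.57 with all libraries, with 1 at an unadjusted p under 0.05. Oas3, Mx1 and Ifi44 were singled out after their values were seen, for large uncalled estimates or groups that did not overlap. Oas3, which makes the signal that activates RNase L, was at 0.183, 0.214 and 0.149 CPM after sham and 0.674, 1.96 and 1.73 CPM after TAC in control mice (log2 2.98 ± 0.74, adjusted p = 0.0612, edgeR). Mx1, whose intact protein is a GTPase that traps viral nucleocapsids, was at 0.320, 0.599 and 0.186 CPM and 0.524, 2.60 and 2.71 CPM in the same groups (log2 2.40 ± 0.70, adjusted p = 0.102, edgeR). An annotated Mx1 transcript is of the nonsense-mediated decay type, so Mx1 RNA need not give intact protein. Oas3 and Mx1 were both called by DESeq2 and without the filter on low counts. In dKO mice Oas3 was at 0, 0.396 and 0.151 CPM after sham and 0.609, 1.09 and 0.287 CPM after TAC, and Mx1 at 0.184, 0.288 and 0.979 and 1.73, 1.34 and 1.64 CPM. Ifi44, an interferon-induced protein of the cytoplasm, was at 3.24, 5.35 and 3.87 CPM after sham and 6.25, 8.93 and 8.65 CPM after TAC in control mice, and 1.54, 4.10 and 4.29 CPM after sham and 3.62, 6.20 and 4.07 CPM after TAC in dKO mice. Its log2 estimate was 0.93 ± 0.36 after TAC in control (adjusted p = 0.203, edgeR) and -0.78 ± 0.36 for dKO after TAC (adjusted p = 0.563, edgeR).

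Ifit1 and Ifit2, whose proteins bind foreign RNA, were the 2 members whose TAC estimate was larger in dKO than in control. Ifit1 was at 5.07, 5.65 and 5.51 CPM after sham and 4.91, 9.82 and 9.95 CPM after TAC in control mice, and 2.89, 4.28 and 4.37 CPM after sham and 7.81, 8.67 and 6.28 CPM after TAC in dKO mice. All dKO TAC libraries were above all dKO sham libraries, whereas control TAC replicate 1 was below every control sham library. The log2 change was 0.97 ± 0.28 in dKO (adjusted p = 0.0555, edgeR) and 0.61 ± 0.28 in control, or 0.71 ± 0.31 in dKO without the 2 libraries. The difference of 0.37 ± 0.39 had an adjusted p of 0.854 (edgeR), and was 0.10 ± 0.39 without those libraries.

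Ifit2 was at 15.1, 14.6 and 16.5 CPM after sham and 17.4, 23.2 and 29.0 CPM after TAC in control mice, and 6.08, 16.2 and 21.2 CPM after sham and 30.5, 23.9 and 33.3 CPM after TAC in dKO mice. Sham and TAC libraries did not overlap in either genotype, with dKO sham replicate 1 far below the rest. Its log2 change was 1.004 ± 0.35 in dKO (adjusted p = 0.0916, edgeR) and 0.59 ± 0.35 in control, and the difference between them was 0.41 ± 0.49, or 0.18 ± 0.28 without the 2 libraries. Ifit3 had estimates of 0.66 ± 0.26 in control and 0.50 ± 0.26 in dKO (0.32 ± 0.25 without the 2 libraries), and stretches of it are 97.8% identical to Ifit3b, so reads of the pair cannot be assigned with certainty.

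Rsad2 (viperin), a radical SAM enzyme that makes a chain-terminating nucleotide, was the member with the lowest estimate in dKO after TAC among genes of at least 1 CPM. It was at 28.3, 23.9 and 25.3 CPM after sham and 24.2, 28.8 and 26.7 CPM after TAC in control mice, and 12.2, 20.9 and 26.2 CPM after sham and 9.61, 16.6 and 13.1 CPM after TAC in dKO mice. The control libraries kept to a narrow range at either surgery, and all 3 dKO TAC libraries were below all control libraries. dKO against control after TAC gave -1.02 ± 0.26 on the log2 scale (adjusted p = 0.152, edgeR). It was called in 3 of 20 alternatives, by DESeq2, without dKO sham replicate 1, and without both libraries that stood apart (log2 -1.23 ± 0.17, adjusted p = 0.00785, edgeR), with a range of 0.00785 to 0.598. After TAC in dKO its estimate was -0.59 ± 0.26 with all libraries and -1.05 ± 0.18 without the 2, where it was called (adjusted p = 0.00942, edgeR; range over alternatives 0.00942 to 0.475). Its neighbour Cmpk2, a mitochondrial nucleotide kinase, had an estimate of -0.71 ± 0.31 for dKO against control after TAC.

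Oas2 was the member with the lowest estimate for dKO after sham, -0.52 ± 0.30 on the log2 scale. Its levels were 10.6, 22.3 and 16.7 CPM after sham and 13.6, 24.6 and 20.4 CPM after TAC in control mice, and 8.60, 11.58 and 14.5 CPM after sham and 10.3, 12.5 and 9.49 CPM after TAC in dKO mice. After TAC every dKO library was below every control library (log2 -0.86 ± 0.30, adjusted p = 0.339, edgeR), and after sham the groups overlapped.

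Bst2 had the lowest interaction estimate among genes of at least 1 CPM, -0.94 ± 0.50 (adjusted p = 0.841, edgeR). It was at 12.7, 19.2 and 13.8 CPM after sham and 16.7, 30.1 and 30.4 CPM after TAC in control mice, and 29.9, 16.5 and 21.7 CPM after sham and 15.5, 31.3 and 12.7 CPM after TAC in dKO mice. Within dKO its highest values were in the 2 libraries that stood apart, and Bst2 is short, with 903 exon bases. The remaining antiviral members Oas1a, Mx2, Ifi27, Ifi35, Trim30a, Xaf1, Parp14 and Rtp4 had log2 changes after TAC between 0.14 and 1.22 in control and between -0.58 and 0.34 in dKO, or -0.48 to 0.11 in dKO without the 2 libraries. Oas1a shares stretches 97.6% identical with Oas1g, Mx1 shares 95.3% with Mx2, Trim30a 97.7% with Trim30d and Isg15 95.2% with a processed pseudogene, and values of these genes carry that uncertainty.

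**Figure D4:**
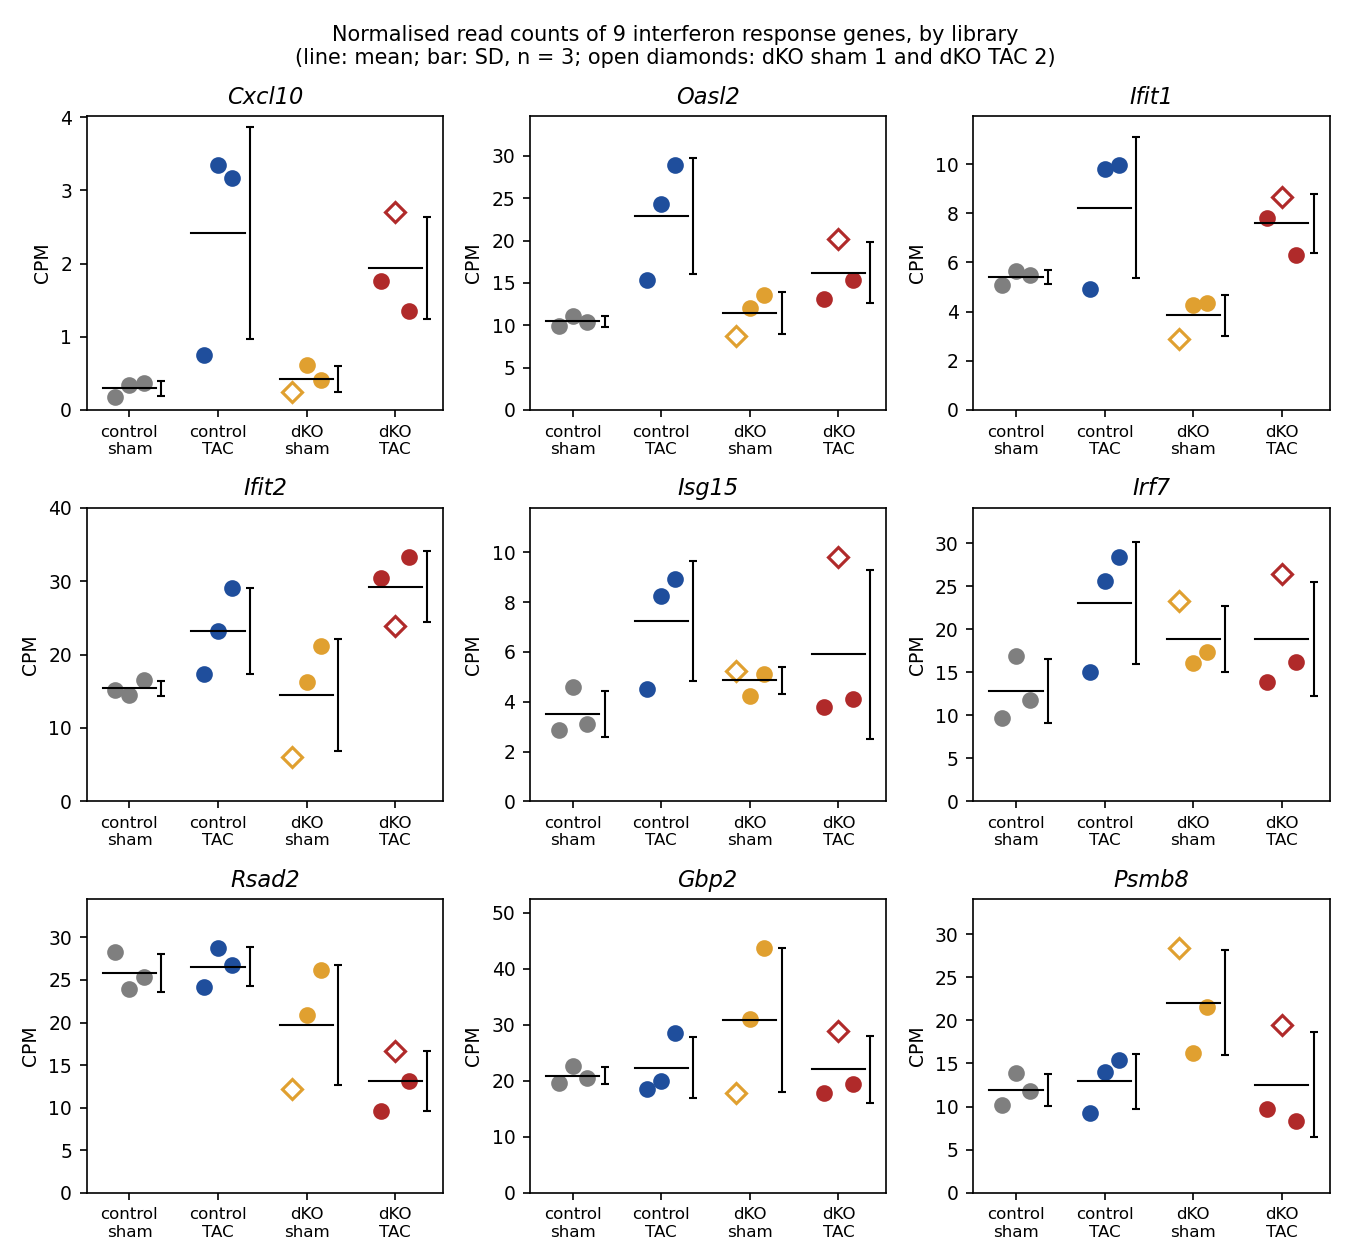
CPM of 9 of the genes in each library, by group, with the mean (line) and SD (bar, n = 3), and open diamonds for the 2 libraries that stood apart. Cxcl10 and Ifit2 separate sham from TAC in both genotypes, Rsad2 is low in dKO TAC, and Psmb8 is high in dKO sham, where replicate 1 is highest.

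Cxcl9, the other chemokine of the list and a target mainly of type II interferon, was not called in any comparison. Its log2 change was -0.13 ± 0.34 after TAC in control and -0.34 ± 0.34 in dKO (-0.84 ± 0.34 without the 2 libraries that stood apart), at 2.08 CPM per kilobase in control sham against 0.133 for Cxcl10. After TAC in control, Cxcl10 stood at 1.07 and Cxcl9 at 1.89 CPM per kilobase.

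The 6 interferon-inducible GTPases, which gather on the membranes of intracellular pathogens, had a median log2 change of 0.12 after TAC in control and -0.48 in dKO, where all 6 estimates were negative. Without the 2 libraries that stood apart the dKO median was -0.87, with 4 of 6 called lower (all genes 4.66%). Gbp2 was at 19.6, 22.6 and 20.5 CPM after sham and 18.6, 19.9 and 28.5 CPM after TAC in control mice, and 17.9, 31.1 and 43.7 CPM after sham and 17.8, 28.9 and 19.4 CPM after TAC in dKO mice. Its dKO sham libraries spread from the lowest value of all 12 libraries but 1 to the highest, and the change of -0.49 ± 0.30 after TAC in dKO was not called (adjusted p = 0.303, edgeR). Without the libraries that stood apart it was -1.01 ± 0.22 and called (adjusted p = 0.0232, edgeR; range over alternatives 0.0232 to 0.734).

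Gbp5, which promotes inflammasome assembly, was the member with the lowest change after TAC in control, -0.54 ± 0.39 on the log2 scale. It was at 12.1, 12.3 and 14.8 CPM after sham and 8.01, 8.18 and 10.8 CPM after TAC in control mice, and 4.61, 15.7 and 21.0 CPM after sham and 9.13, 9.76 and 7.60 CPM after TAC in dKO mice. The control groups did not overlap, and dKO sham replicate 1 was again the lowest library. The change after TAC in dKO was -0.65 ± 0.39 with all libraries and -1.13 ± 0.21 without the 2, where it was called (adjusted p = 0.0130, edgeR; range over alternatives 0.0130 to 0.726).

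Igtp (Irgm3), chosen after its values were seen, had dKO sham libraries that lay close together. It was at 11.56, 15.7 and 14.5 CPM after sham and 15.4, 15.5 and 15.5 CPM after TAC in control mice, and 20.2, 21.5 and 23.3 CPM after sham and 11.1, 18.2 and 16.2 CPM after TAC in dKO mice. The dKO sham libraries were above all 9 others. The difference of dKO after sham was 0.64 ± 0.19 (adjusted p = 0.507, edgeR), and the interaction was -0.66 ± 0.27 (adjusted p = 0.841, edgeR). Exons of Igtp and Irgm2 overlap on the same strand, and Gbp7 holds a stretch identical to a processed pseudogene, which limits both. Gbp7, Gbp3 and Irgm1 had estimates after TAC between 0.01 and 0.24 in control and between -0.47 and -0.01 in dKO, or -0.96 to -0.36 without the 2 libraries.

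Among the genes of antigen processing the median log2 change after TAC was 0.19 in control and -0.59 in dKO (-0.87 without the 2 libraries that stood apart), and the median difference of dKO after sham was 0.60. Psmb8, a catalytic subunit of the immunoproteasome, was at 10.2, 13.9 and 11.8 CPM after sham and 9.29, 14.1 and 15.4 CPM after TAC in control mice, and 28.4, 16.2 and 21.6 CPM after sham and 9.74, 19.5 and 8.30 CPM after TAC in dKO mice. All dKO sham libraries were above all control sham libraries, and in dKO TAC the library that stood apart was within the range of dKO sham. Psmb8 had the highest estimate for dKO after sham, 0.88 ± 0.33 (adjusted p = 0.507, edgeR), and the lowest for TAC in dKO, -0.81 ± 0.32 (adjusted p = 0.133, edgeR). The latter was -1.07 ± 0.25 without the 2 libraries, where it was called (adjusted p = 0.0307, edgeR; range over alternatives 0.0293 to 0.389).

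Psmb9, its partner subunit, and Tap1, a chain of the peptide transporter, share a divergent promoter on chromosome 17. Their differences of dKO after sham were 0.64 ± 0.30 and 0.56 ± 0.27, and their changes after TAC in dKO were -0.74 ± 0.30 and -0.44 ± 0.26 on the log2 scale (-0.99 ± 0.30 and -0.76 ± 0.29 without the 2 libraries). Their exons overlap on opposite strands, so without the strand setting reads of the pair cannot be told apart. B2m was at 141, 226 and 182 CPM after sham and 174, 258 and 310.1 CPM after TAC in control mice, and 226, 190.5 and 240.0 CPM after sham and 193, 241 and 191 CPM after TAC in dKO mice. All its groups overlapped, with a log2 change after TAC of 0.44 ± 0.24 in control and -0.07 ± 0.24 in dKO (-0.17 ± 0.28 without the 2 libraries).

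Genes of the same pathway outside the 39 were read by list. Of the interferon genes themselves, 10 were listed: Ifnb1, Ifna1, Ifna2, Ifna4, Ifna5, Ifnk, Ifne, Ifng, Ifnl2 and Ifnl3. These 10 were too low to test, with 3 reads in all 12 libraries together, 1 of Ifne and 2 of Ifng. Other interferon genes were outside the list. None of the 15 receptor, kinase and feedback genes was called in any comparison, and their medians stayed between -0.08 and 0.19 on the log2 scale. Ifnar1, a chain of the type I receptor, was at 24.9, 26.7 and 25.9 CPM in control mice after sham and 27.1, 32.4 and 33.9 CPM after TAC. Of 19 genes of nucleic acid sensing and induction, 1 rose after TAC in control (all genes 1.9%). It was Zbp1, a sensor of left-handed nucleic acid, which rose by 2.25 ± 0.46 (adjusted p = 0.0308, edgeR), from 0.640, 0.899 and 0.372 to 1.72, 3.77 and 3.56 CPM. Of 42 other interferon-stimulated genes tested, 1 rose after TAC in control (all genes 1.9%) and 1 in dKO (all genes 4.2%). In both genotypes it was Slfn9 of the Schlafen family, by 2.27 ± 0.42 in control (adjusted p = 0.0201, edgeR) and 1.88 ± 0.42 in dKO (adjusted p = 0.0213, edgeR). The medians of that list were 0.41 in control and 0.03 in dKO, with 34 and 22 positive estimates. Without the 2 libraries that stood apart, that list had a dKO median of -0.21 with 12 positive. In that fit 6 were called lower (all genes 4.66%) and none higher, so the Slfn9 call in dKO was lost.

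The 17 genes of the major histocompatibility complex and its loading machinery had the largest median of the interferon lists for dKO after sham, 0.70, with 16 positive estimates. None was called, 10 were higher at an unadjusted p under 0.05 (all genes 6.27%) and 12 were higher with no overlap (all genes 9.27%). The class I heavy chain gene H2-K1 was at 111, 173 and 153 CPM in control sham and 259, 180.0 and 209.7 CPM in dKO sham, a log2 difference of 0.57 ± 0.26 (adjusted p = 0.507, edgeR). The class II genes H2-Eb1 and Cd74 had estimates of 1.16 ± 0.42 and 1.10 ± 0.43. Without the 2 libraries that stood apart the median was 0.46, and with the length trend removed it was 0.36, with 3 genes at an unadjusted p under 0.05 in each. After TAC in dKO the list's median was -0.54, with 6 genes lower at an unadjusted p under 0.05 (all genes 14.8%).

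Markers of other cells moved with the members in some groups and not in others. Macrophage markers summed to 173, 364 and 172 CPM after sham and 244, 500.2 and 763 CPM after TAC in control mice, and to 278, 264 and 328 CPM and 418, 517 and 289.6 CPM in dKO mice. None of the 14 was called in any comparison, 12 were higher at an unadjusted p under 0.05 after TAC in control (all genes 10.8%), and their median log2 change was 1.25 in control. In dKO it was 0.75, with 13 of 14 positive, or 0.39 without the 2 libraries that stood apart, beside a median of -0.01 or -0.36 for the members. Control TAC replicate 1 had the lowest macrophage sum of its group, and it also had the lowest median of the 39 members, 0.06 above the control sham mean on the log2 scale against 0.52 and 0.47 in replicates 2 and 3. Control sham replicate 2 had the highest sum and the highest median (0.22) of its group. Fibroblast sums were 980.2, 1771 and 988 CPM after sham and 1512, 4104 and 10520 CPM after TAC in control mice. Endothelial sums were also highest in control sham replicate 2 (2279 CPM) and lowest in control TAC replicate 1 (1706 CPM) of their groups. Cardiomyocyte sums ran the other way, 62662, 46480 and 62480 CPM and 60177, 42994 and 35665 CPM. Mural sums were highest in control sham replicate 2 but lowest in control TAC replicate 3. In dKO mice the order by macrophage sums differed. dKO TAC replicate 1 had a higher sum than replicate 3 and a lower member median (-0.11 against -0.06). dKO sham replicate 1 had a higher sum than replicate 2 and a lower member median (-0.32 against 0.13). The median of the 14 markers was also taken, as log2 above the control sham mean. In dKO sham it was -0.58, 0.19 and 0.47, in the order of the members' medians (-0.32, 0.13 and 0.37). In dKO TAC it was 0.93, 1.31 and 0.40, so the order of replicates 1 and 3 still differed from that of the members. Between genotypes after TAC all 14 macrophage estimates were negative in dKO, with a median of -0.35, beside the -0.29 of the members. Of 10 fibroblast markers, 4 rose after TAC in each genotype (all genes 1.9% in control and 4.2% in dKO) and 1 fell in dKO. In dKO 1 rose and 1 fell without the 2 libraries. The sum of 13 lymphocyte markers was 1.15 to 4.96 CPM and 1 of them was high enough to test, Ncr1 was at 0 in control sham and dKO TAC, and Ly6g, a marker of neutrophils, was at 0 in all 12 libraries, where the floor of 3 counts applies. The part of these cells in the members' values was not tested. In bulk RNA, fewer cells of a type and less RNA per cell cannot be told apart.

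The roles differed in how they lay beside the macrophage sums. The median of the 19 antiviral effectors, as log2 above the control sham mean, was -0.09, 0.19 and -0.03 after sham and 0.12, 0.67 and 0.73 after TAC in control mice, and -0.37, 0.09 and 0.24 after sham and -0.04, 0.59 and -0.05 after TAC in dKO mice. The medians of the 4 antigen genes were -0.28, 0.20 and 0.05 after sham and -0.32, 0.34 and 0.48 after TAC in control mice, and 0.58, 0.44 and 0.68 after sham and -0.20, 0.47 and -0.23 after TAC in dKO mice. The antigen medians of dKO sham were above those of every control sham library. The macrophage sums were 278, 264 and 328 CPM in dKO sham and 173, 364 and 172 CPM in control sham. The part of macrophage content in this difference was not tested. The members also varied together within groups: over 741 pairs of members the median correlation of their deviations from the group mean was 0.63 (Pearson's r over 12 libraries that share depth and scaling), and 675 pairs were positive.

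**Figure D5:**
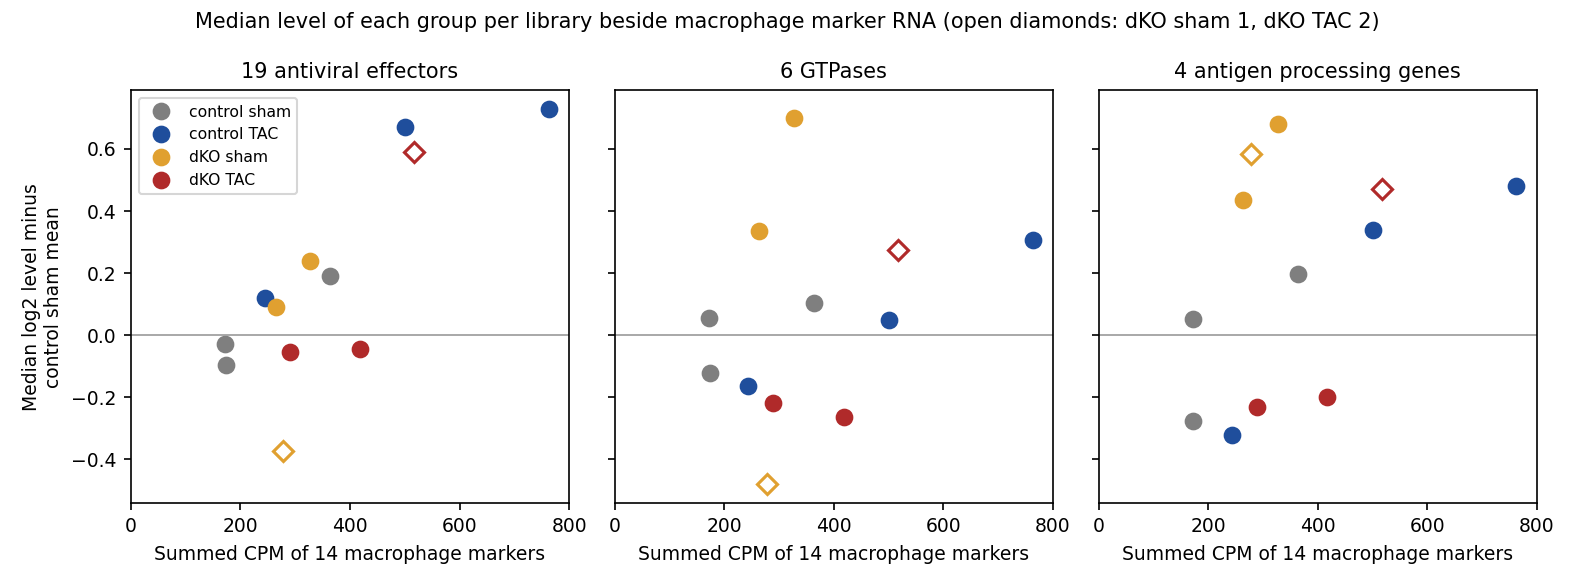
Median level of 19 antiviral effectors, 6 GTPases and 4 antigen processing genes in each library, as log2 minus the control sham mean, against the summed CPM of 14 macrophage markers, by group, with open diamonds for the 2 libraries that stood apart. The 3 libraries with the highest macrophage sums (500 to 763 CPM) also have the 3 highest antiviral medians. Markers of other cells are not shown. All 3 dKO sham libraries lie above all 3 control sham libraries for the antigen genes. Their sums are 264 to 328 CPM, against 173, 364 and 172 CPM in control sham.

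Promoter matches were set beside the changes as a description. The 17 members with an ISRE match had a median log2 change after TAC of 0.44 in control, and the 15 without one 0.27. Their ranges overlapped, -0.54 to 2.99 with a match and -0.13 to 1.13 without. After TAC in dKO the medians were -0.01 and -0.02, and for the interaction -0.59 and -0.58. For dKO minus control they were 0.25 and 0.14 after sham and -0.25 and -0.32 after TAC. Of the called members, Cxcl10 had a match and Oasl2 had none.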

How the data were processed

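The authors deposited 1 table of raw counts, whole numbers for 49568 genes in 12 libraries, of which 21344 genes had no count. Trimmomatic 0.36, STAR 2.5.2b, Subread 1.5.0p3, featureCounts and GRCm38.p5 are named in the submitters' processing notes. Strand setting, annotation and handling of multi-mapping reads were not given in the sources used here. Per the labels' protocols, a stranded mRNA kit was used on 200 ng of RNA, with single-end reads of 100 nt. Cardiomyocytes were enriched by Langendorff perfusion and sedimentation for 10 min at 37 °C, which can leave other cells. The labels place surgery at 10 weeks of age and the series' design text at 8 weeks.

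Testing used edgeR 4.0.16 in R 4.3.3 (quasi-likelihood F test, TMM scaling, filterByExpr by group). All 12 libraries entered 1 model of the 4 group means, which left 8 residual degrees of freedom. P-values were adjusted by Benjamini-Hochberg over 14712 genes and genes under 0.05 were called. Changes are log2 values, with an SE from the change and its F statistic. The interaction is the TAC change in dKO minus that in control. Levels are CPM, to which 0.5 was added for log2 levels of single libraries. Alternatives were DESeq2 1.42.0 (test, and size factors alone), limma-voom (limma 3.58.1), no filter, a replicate block, only the compared groups, removal of the trend with exon length, and leaving out 1 library or the 2 that stood apart. All libraries within a group differed by more than sampling noise. The steps were tested on simulated counts.

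The members and lists were chosen with earlier results of these data known. Values in every library are given for members called in any comparison, for the highest and lowest change of each comparison among members averaging 1 CPM or more, and for Stat2, Irf9, Irf7, Isg15, Ifit1, Gbp2, Psmb8 and B2m. Other genes were chosen after their values were seen, except those of other lists that were called or among the 3 with the largest change. Coordinates and exon lengths are from GENCODE on GRCm38, matched by symbol for all 39 members, and promoters from RefSeq on GRCm38.p6. Near-identical stretches of at least 300 bases and 95% identity were searched among annotated transcripts.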

Additional observations from a re-analysis of the deposited data

How the results depend on the processing

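Of 3858 estimates for single members under the alternatives, 172 changed sign, 166 of them where the estimate was within 1 SE of 0. The other 6 were Mx2 and Ifi44 after TAC in dKO without the 2 libraries that stood apart (-0.11 and -0.13, against at most 0.59 and 0.69 when 1 library was left out), Isg15 (-0.0059) and B2m (-0.17) for dKO after sham with the length trend removed, and 2 changes after TAC in dKO when 1 library was left out, with ranges of -0.68 to 0.0019 for Ifi35 and -0.93 to 0.0071 for Gbp7. The cause was not tested. Estimates within 1 SE of 0 are included in the counts of positive and negative estimates given above. Over the alternatives, 31 to 38 members had positive estimates after TAC in control and 10 to 22 after TAC in dKO. For dKO minus control, 21 to 35 were positive after sham and 29 to 38 were negative after TAC.

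The number of members called after TAC in control, 2, was 4 without the filter, 4 with DESeq2, 4 without the 2 libraries that stood apart, 0 with limma-voom, 0 with only the compared groups, and 0 to 5 when 1 library was left out. After TAC in dKO it was 1, against 3 without the filter, 3 with DESeq2, 0 with limma-voom, 2 with the length trend removed, 6 without the 2 libraries, all lower, and 0 to 3 when 1 library was left out. The 3, without dKO sham replicate 1 (Gbp5, Gbp7 and Rsad2), and the 1 without dKO TAC replicate 2 (Psmb8) were called lower, against 1 called higher with all libraries. The median change of the members after TAC in dKO was -0.01, and -0.36 without the 2 libraries. The number of members called for dKO after TAC was 0, against 1 with DESeq2, 1 without the 2 libraries and 0 to 1 when 1 library was left out. It was 0 under every alternative run for dKO after sham and for the interaction, where 2 members each were under an unadjusted p of 0.05. With groups of 3 libraries and levels near the floor, changes of Oas3, Mx1 and Cxcl10 are estimated least precisely.

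The labels number the libraries 1 to 3 in each group, and same-numbered libraries deviated together in 11 of 18 pairs at r over 0.1, with r from -0.66 to 0.51, so the numbers were not taken as pairs. A replicate block left 2 members called after TAC in control, gave 2 in place of 1 after TAC in dKO (Cxcl10 and Ifit1), and gave 0 in the other comparisons.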
